A study of Mus musculus with 6 samples.

Results

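The genes described here encode splicing factors and heterogeneous nuclear ribonucleoproteins (hnRNPs). They were chosen by symbol alone: protein-coding mouse genes of GENCODE M39 named Snrp, Sf3a or Sf3b, Prpf, Srsf, Hnrnp or Lsm, with 1 gene left out by the rule, which gave 78 genes of 21751 protein-coding genes. The group holds 11 genes of Sm and snRNP proteins, 9 of SF3a and SF3b subunits, 13 of PRP-type factors, 12 of SR proteins, 20 of hnRNPs and 13 of LSm proteins. No measured value entered the choice, although the group was proposed with earlier results of these data known.

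The data are CUT&RUN libraries, in which an antibody tethers a nuclease that releases nearby DNA for sequencing. The cells were E16.5 prospermatogonia, fetal male germ cells that have left the mitotic cycle. All groups shared the same source: male embryos homozygous for an Oct4-EGFP transgene (stock B6;129S4-Pou5f1tm2Jae/J, with C57BL/6 given as the strain), labelled Taf4b-wildtype, whose dissociated gonads were sorted on live GFP signal. The 3 groups differed only in the antibody, which was directed at TAF4b, at H3K4me3 or was control IgG, with 2 replicates each, and the 2 IgG libraries were not analysed here. Whether the replicates came from separate animals or pools is not given in the labels, so their spread may be technical.

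The spliceosome removes introns from pre-mRNA. Its small nuclear ribonucleoproteins (snRNPs) are built on rings of Sm or LSm proteins, SF3a and SF3b hold the U2 snRNP at the branch point, PRP-type factors assemble and remodel the complex, and SR proteins and hnRNPs bind exons and introns and raise or lower the use of splice sites. TAF4b is a germ-cell-enriched relative of TAF4 within TFIID, the complex that places RNA polymerase II at promoters, and H3K4me3 is the histone mark of promoters in an active state.

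The 4 lists were of very unequal size, which bears on every count below. TAF4b replicates 1 and 2 held 7861 and 848 peaks, and H3K4me3 replicates 1 and 2 held 64891 and 1730 regions. Sequencing depth is unknown, so absence from a replicate 2 list is not evidence that a site was free. Scores are the authors' values, their scaling is not given, and they are read within 1 list only. Of 10 germ cell markers, 7 had a TAF4b replicate 1 promoter peak and 5 an H3K4me3 replicate 1 promoter region, while Pou5f1, Nanos2 and Nanos3 had neither. Within 500 bp of a start 7 of the 10 (70%) had TAF4b in replicate 1, beside 28.2% of all protein-coding genes, and 7 had H3K4me3 in replicate 1, beside 70.7%, Pou5f1 among the latter. In replicate 2, 0 of the 10 had TAF4b by either rule, beside 3.14% and 4.08% of all protein-coding genes. An H3K4me3 promoter region was listed there at 0 of the 10, beside 4.14%, and H3K4me3 near a start at 1 (Sall4), beside 7%. Of 12 markers of other fetal testis cells, 0 had a TAF4b promoter peak, beside 22.7% of all protein-coding genes in replicate 1, and 4 had an H3K4me3 promoter region (Sox9, Wt1, Gata4 and Acta2), beside 44% of all protein-coding genes. Within 500 bp of any annotated start, 1 of the 12 (Nr5a1) had TAF4b, beside 28.2%, and 7 had H3K4me3 in replicate 1 (58.3%, beside 70.7% of all genes). The part of other cells in the H3K4me3 values was not tested.

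To show the DNA under TAF4b peaks of these genes, 7 sequences are given. Each is the portion of a TAF4b promoter peak that lies outside the exons of Ensembl canonical protein-coding transcripts, read from GRCm39 5′ to 3′ on the strand of the gene. Capitals mark matches to the searched sequences on either strand, which in these 7 windows are the CCAAT box (CCAAT, or ATTGG in reverse) and the GC box (GGGCGG, or CCGCCC in reverse). The first 5 belong to genes with a TAF4b promoter peak in both replicates. For Hnrnpc (chr14:52341615-52341755), Sf3b1 (chr1:55066655-55066720), Hnrnpu (chr1:178165363-178165476) and Snrpa (chr7:26895594-26895687), all on the minus strand, the replicate 2 peak was used. For Hnrnpul2 (chr19:8796700-8796842, plus strand) the upstream peak of replicate 1 was used, which is not the site found in both replicates. The replicate 2 peak overlapped the other replicate 1 peak, whose 200 bp window held 1 CCAAT box and 1 GC box. Hnrnpl (chr7:28510049-28510191, plus strand) is added for its replicate 1 score, the highest in the group, and Prpf4 (chr4:62326896-62326999, plus strand) as a promoter shared with a neighbouring gene. Both were chosen after their values were seen. For Hnrnph2 and Lsm4, also found in both replicates, under 50 bp of the peak lay outside exons.
Hnrnpc: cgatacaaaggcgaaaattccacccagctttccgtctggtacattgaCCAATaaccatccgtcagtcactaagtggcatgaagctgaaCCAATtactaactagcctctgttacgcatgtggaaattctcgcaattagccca
Sf3b1: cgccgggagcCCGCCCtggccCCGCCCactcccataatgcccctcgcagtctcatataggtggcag
Hnrnpu: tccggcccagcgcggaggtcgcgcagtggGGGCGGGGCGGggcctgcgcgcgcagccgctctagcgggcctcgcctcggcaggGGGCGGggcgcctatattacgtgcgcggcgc
Snrpa: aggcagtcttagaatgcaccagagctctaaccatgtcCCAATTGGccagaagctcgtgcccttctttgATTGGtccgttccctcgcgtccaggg
Hnrnpul2: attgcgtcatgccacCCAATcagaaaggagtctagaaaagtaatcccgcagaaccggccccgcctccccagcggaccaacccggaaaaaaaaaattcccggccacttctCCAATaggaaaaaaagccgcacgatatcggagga
Hnrnpl: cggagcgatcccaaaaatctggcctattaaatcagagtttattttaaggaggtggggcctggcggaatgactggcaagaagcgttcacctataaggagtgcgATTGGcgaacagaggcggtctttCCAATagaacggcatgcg
Prpf4: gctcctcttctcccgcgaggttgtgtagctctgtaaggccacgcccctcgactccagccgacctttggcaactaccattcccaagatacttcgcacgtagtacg
The Hnrnpc, Snrpa, Hnrnpul2 and Hnrnpl windows hold 2, 3, 2 and 2 CCAAT boxes and no GC box, counting both strands of an overlapping CCAATTGG in Snrpa. Sf3b1 and Hnrnpu hold 2 and 3 GC boxes and no CCAAT box. The Prpf4 window holds none of the searched sequences.

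The first question was how many of these genes carried TAF4b at a promoter. A gene was counted when a peak of the deposited promoter-TSS class named one of its transcripts. In replicate 1, 43 of 78 genes (55.1%) had such a peak, beside 22.7% of all protein-coding genes. In replicate 2, 8 of 78 (10.3%) did, beside 3.14%. Both replicates held a promoter peak at 7 genes, 8.97% of the group, beside 2.7% of all protein-coding genes. These were 7 of the 43 genes of replicate 1 and 7 of the 8 of replicate 2. When the longer list of each antibody was reduced to its highest scores, as many as in the shorter, 12 genes (15.4%) had a TAF4b replicate 1 promoter peak, beside 3.35% of all protein-coding genes, and 4 (5.13%) had one in both replicates, beside 1.5%. In the same reduction 1 gene (1.28%) had an H3K4me3 replicate 1 promoter region, beside 3.42%, so the H3K4me3 share then lay below that of all genes. H3K4me3 promoter regions were listed at 52 genes (66.7%) in replicate 1, beside 44%, and at 4 (5.13%) in replicate 2, beside 4.14%. The replicate 2 H3K4me3 share was thus close to that of all genes. Among genes with an H3K4me3 replicate 1 promoter region, 36 of 52 (69.2%) had a TAF4b replicate 1 promoter peak, beside 37.9% of all such genes.

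The promoter class credits a peak between close start sites to a single gene, so the count was repeated with any interval that reached within 500 bp of any annotated start of the gene. By this rule 54 of 78 genes (69.2%) had a TAF4b peak in replicate 1, beside 28.2% of all protein-coding genes, and 11 (14.1%) in replicate 2, beside 4.08%. Both replicates did so at 9 genes (11.5%), beside 3.53%. H3K4me3 lay near a start at 74 genes (94.9%) in replicate 1, beside 70.7%, and at 6 (7.69%) in replicate 2, beside 7%. Of the 74 genes with H3K4me3 near a start in replicate 1, 54 (73%) had TAF4b there too, beside 39%. With the Ensembl canonical start alone, 48 genes (61.5%) had a TAF4b replicate 1 peak, beside 25.7%.

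**Figure D1:**
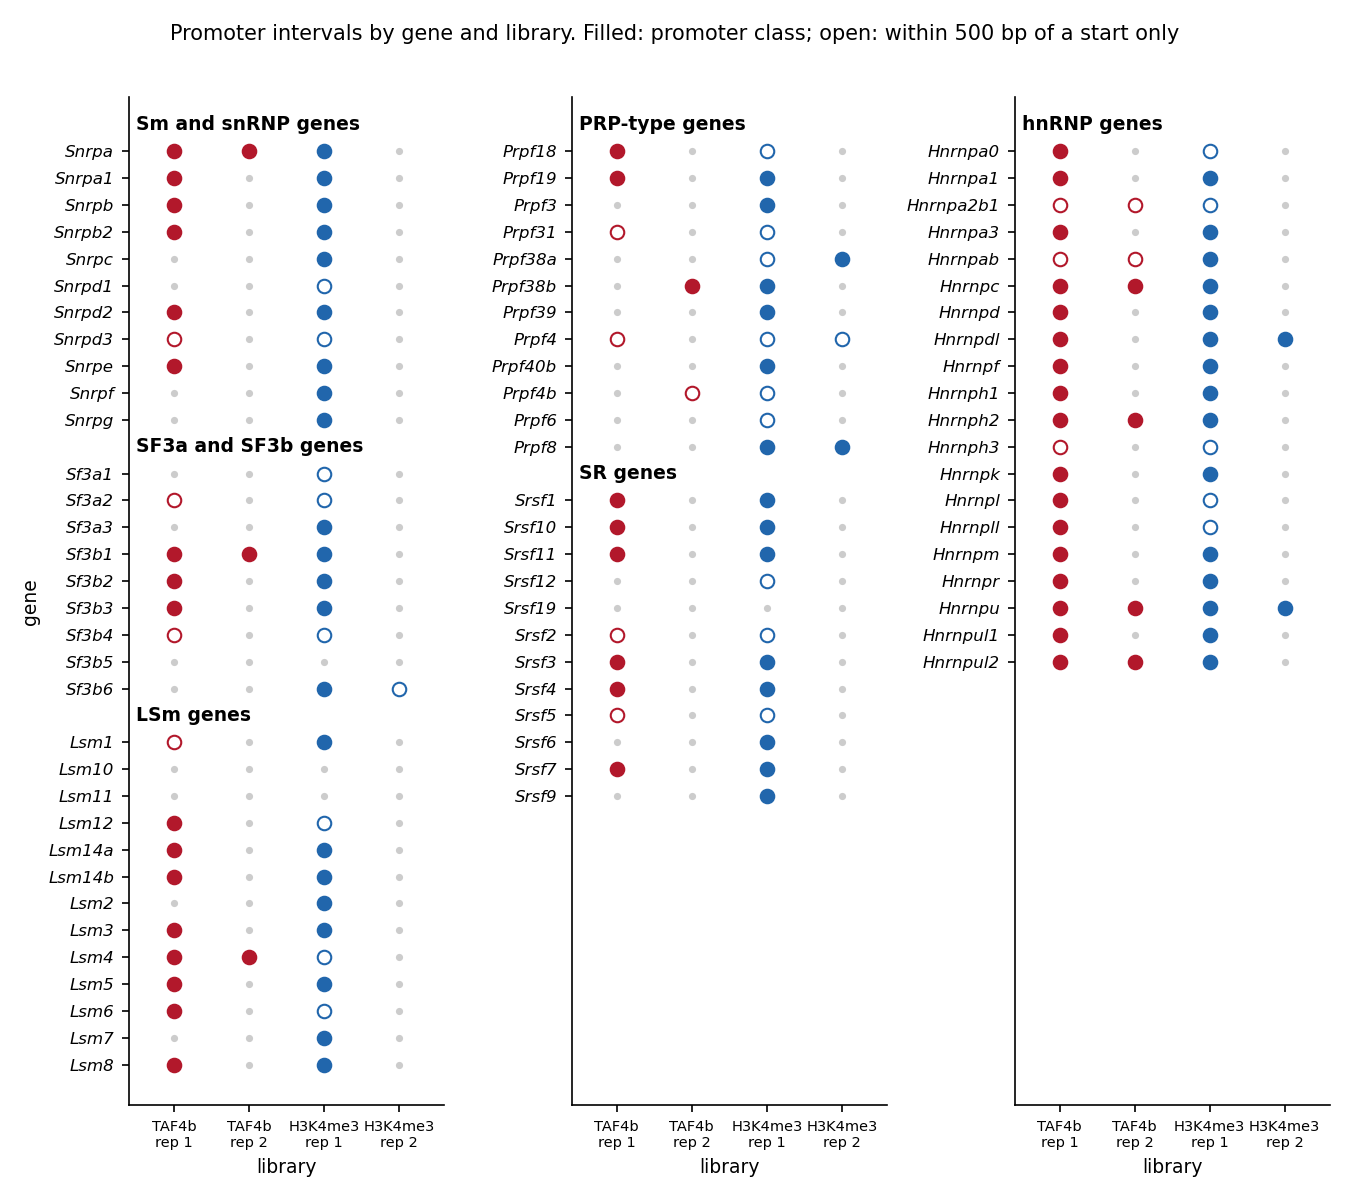
Splicing and hnRNP genes (77 of the 78) by role group (rows) and the 4 libraries (columns); a filled circle is an interval of the promoter-TSS class, an open circle an interval within 500 bp of an annotated start only, and a small grey dot neither. The hnRNP panel is filled or open at all 20 genes in TAF4b replicate 1, and the replicate 2 columns are sparse in every panel.

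The share with TAF4b differed among the role groups. In replicate 1 a TAF4b promoter peak was present at 17 of 20 hnRNP genes (85%), 8 of 13 LSm genes (61.5%), 6 of 11 Sm and snRNP genes (54.5%), 6 of 12 SR genes (50%), 3 of 9 SF3a and SF3b genes (33.3%) and 3 of 13 PRP-type genes (23.1%). The PRP-type share was close to the 22.7% of all protein-coding genes. Near any start the hnRNP count was 20 of 20 and the PRP-type count 5 of 13 (38.5%), beside 28.2% of all protein-coding genes. How near the PRP-type share lay to that of all genes thus depended on the rule. In replicate 2 the promoter peaks were at 4 hnRNP genes and at 1 gene each of the Sm and snRNP, SF3a and SF3b, PRP-type and LSm groups, and 0 of 12 SR genes had one, beside 3.14% of all protein-coding genes, a share at which single genes per group, or 0, say little. These differences among role groups were not tested, since genes are not replicates. With the canonical start alone the hnRNP count was 16 of 20, beside 25.7% of all protein-coding genes. The count fell because the peaks of Hnrnpa2b1, Hnrnpab, Hnrnpf and Hnrnpm lay at other annotated starts.

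**Figure D2:**
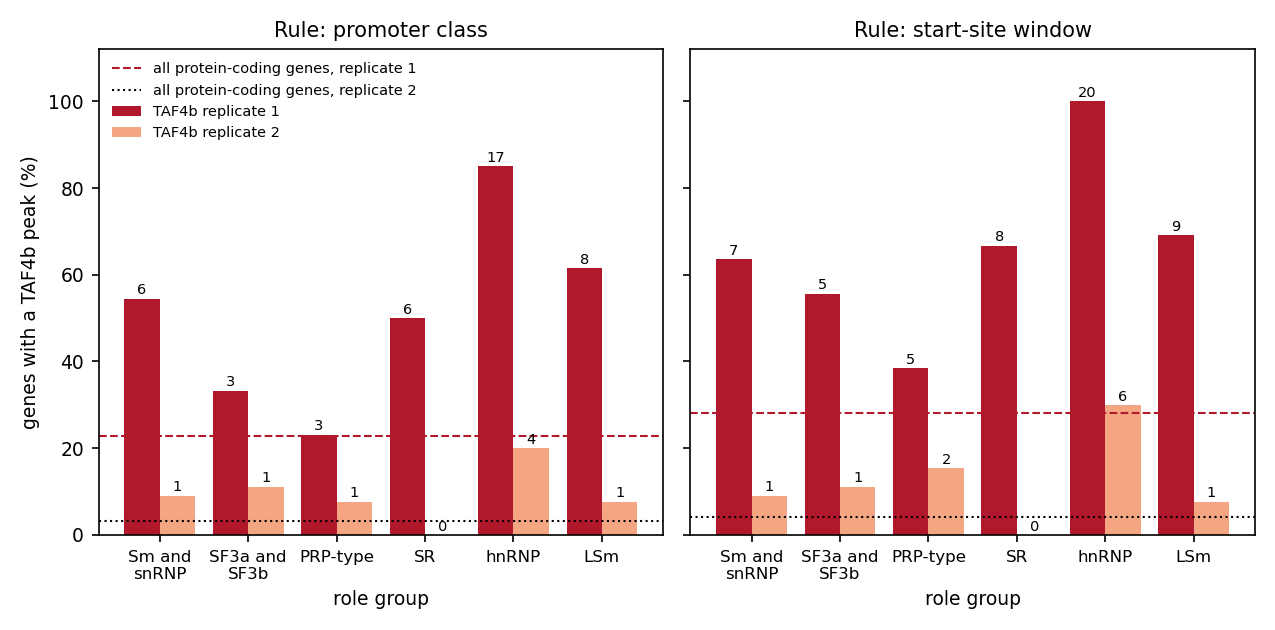
Share of genes in each role group with a TAF4b peak (vertical axis, percent), by promoter class (left) and within 500 bp of any start (right), with gene counts above the bars. The hnRNP bars are highest under both rules (17 and 20 of 20 genes in replicate 1), and the dashed and dotted lines give all protein-coding genes.

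The 7 genes with TAF4b in both replicates are described by role. Snrpa encodes the A protein of the U1 snRNP, which recognizes the donor splice site. Its peak had a score of 32.8 in TAF4b replicate 1 and 56.7 in replicate 2, at deposited distances of -4 and -15 bp, which refer to different annotated starts. H3K4me3 covered it in replicate 1 with a score of 101.4, and no H3K4me3 promoter region was listed in replicate 2. Sf3b1 encodes the largest SF3b subunit, which contacts the branch point region. Its TAF4b scores were 35.7 and 76.9, at deposited distances of 8 and -3 bp, within an H3K4me3 replicate 1 region of score 98.4 and 1866 bp. Lsm4, a subunit of the LSm rings that bind U6 RNA and decaying mRNA, had scores of 28.3 and 101.2, and the latter was the highest replicate 2 score among these genes. The Lsm4 peaks lay at deposited distances of -4 and 45 bp, so the peaks of all 3 genes were close to an annotated start.

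The other 4 were hnRNP genes. Hnrnpc, whose product binds uridine tracts of nascent transcripts, had TAF4b scores of 47.6 and 93.1 and an H3K4me3 replicate 1 score of 153.5. Its replicate 1 peak ranked 53 of 7861. Hnrnpu, which encodes a chromatin-associated RNA-binding scaffold, had scores of 19.9 and 72.9. It was the only gene of the 78 with a promoter interval in all 4 lists, with H3K4me3 scores of 104.3 and 111.2. Hnrnpul2, a relative of Hnrnpu, had a replicate 1 peak of 40.2 on the side of its divergent neighbour Ttc9c and a further peak of 31.3, and the replicate 2 peak (48.6) overlapped the latter. Hnrnph2, an X-linked gene for a protein that binds runs of guanines, had scores of 22.3 and 48.6 beside the start of Gla. In all 7 genes a replicate 1 and a replicate 2 peak overlapped by at least 1 bp. Prpf38b, a PRP-type gene, was listed in replicate 2 only (score 44.5, near the lowest listed score of 40.5), with an H3K4me3 replicate 1 score of 131.2.

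**Figure D3:**
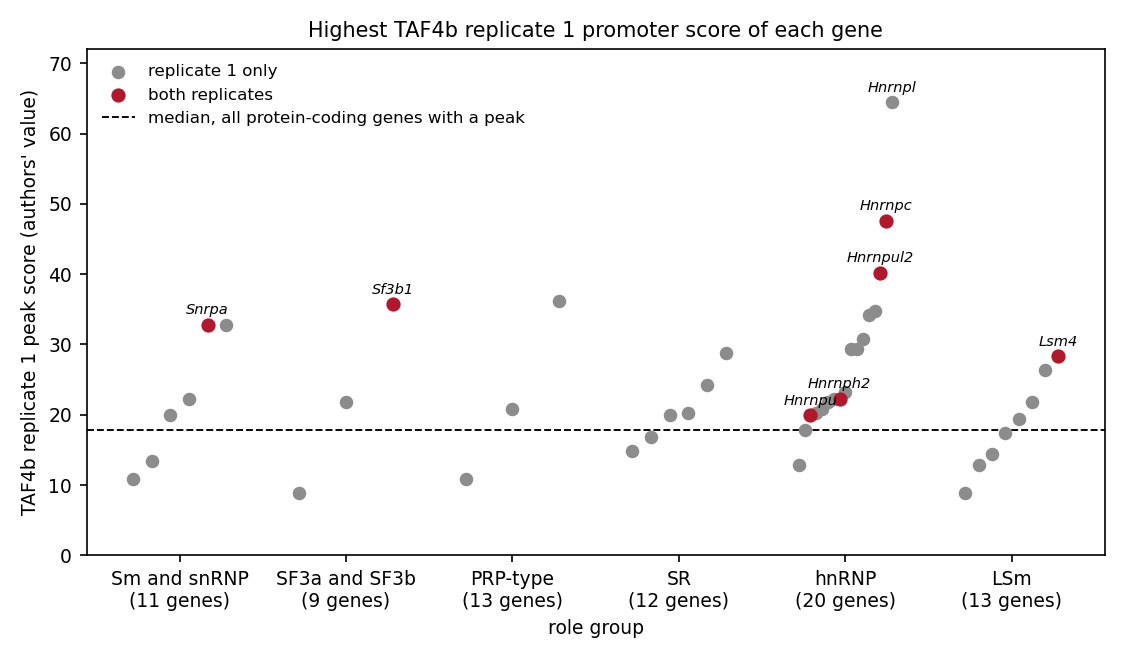
Highest TAF4b replicate 1 promoter score (vertical axis, the authors' value) of each of the 43 genes with a promoter peak, by role group; genes also listed in replicate 2 are red and the dashed line is the median over all protein-coding genes with a peak (17.9). Of the 17 hnRNP genes 15 lie above the line, and Hnrnpl, at 64.5, was not listed in replicate 2.

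Scores within the TAF4b replicate 1 list were spread widely. The best promoter score per gene ran from 8.93 to 64.5 with a median of 21.8, beside a median of 17.9 over the 4944 protein-coding genes with a promoter peak. On the scale of all promoter peaks of the list the median percentile was 68.2 for the 43 genes and 53.3 for all genes, both taken at each gene's highest peak. Taking the highest favours genes with 2 or more promoter peaks, 20.9% of these genes beside 5.89% of all genes with a peak. With every promoter peak counted the median of these genes was 63.7. By the highest peak of each gene, 16 of the 43 (37.2%) were in the highest 25% of the list, beside 26.4% of all genes. In the lowest 25% were 4 (9.3%), beside 22.6%. In replicate 2 the median percentile was 55.8 over 8 genes, beside 49.3, and 3 of the 8 (37.5%) were in each of the highest and the lowest 25%, beside 23.9% and 24.9% of all genes. By role the replicate 1 median was 23.3 for hnRNP, 21.8 for SF3a and SF3b, 21.1 for Sm and snRNP, 20.8 for PRP-type, 20.1 for SR and 18.4 for LSm genes, so the role groups overlapped in score.

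Among the 10 highest replicate 1 promoter scores were those of Hnrnpl, Hnrnpc, Hnrnpul2, Sf3b1, Hnrnpa1, Hnrnpa3, Snrpa, Snrpd2 and Hnrnpr. Hnrnpl, whose product binds CA repeats, scored 64.5 and ranked 5 of 7861, at a deposited distance of -195 bp. The H3K4me3 replicate 1 region across its start, classed as intron, had a score of 257.9. Hnrnpa1, a well-known repressor of splice sites, scored 34.7 and its relative Hnrnpa3 34.2. Snrpd2, an Sm core subunit, scored 32.8 and Hnrnpr 30.8. None of Hnrnpl, Hnrnpa1, Hnrnpa3, Snrpd2 and Hnrnpr had a promoter peak in replicate 2. The 7 genes found again in replicate 2 had replicate 1 scores of 19.9 to 47.6 (median 32.8), and the other 36 had 8.93 to 64.5 (median 20.8), so the ranges overlapped. Over all protein-coding genes with a replicate 1 promoter peak the corresponding medians were 30.3 and 16.4.

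Among the other Sm and snRNP genes, TAF4b replicate 1 scores ran from 10.9 to 22.3 below the top 2. Snrpb, whose products form part of the Sm ring, had a TAF4b score of 22.3 at 11 bp from the start and an H3K4me3 score of 125.2. Snrpe, another ring subunit, had 19.9 and 73.0. The U2 snRNP genes Snrpa1 and Snrpb2 had lower TAF4b scores of 13.4 and 10.9, with H3K4me3 scores of 44.7 and 107.3. Snrpd3 had a TAF4b peak of 18.4 credited to Gucd1. Of the 7 Sm ring genes in the set (Snrpb, Snrpd1, Snrpd2, Snrpd3, Snrpe, Snrpf and Snrpg), Snrpd1, Snrpf and Snrpg had no TAF4b peak near a start in either list. TAF4b was thus listed near a start at 4 of the 7, all in replicate 1 and none in replicate 2. The shares of all protein-coding genes in these lists were 28.2% and 4.08%.

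Among the SF3 genes, Sf3b2 had a TAF4b replicate 1 score of 21.8 at -52 bp and an H3K4me3 score of 108.8. Sf3b3, whose start lies opposite that of Cog4, had a TAF4b score of 8.93, among the lowest of the group, under an H3K4me3 score of 144.6. Sf3b4 and Sf3a2 had peaks of 19.9 and 9.93 credited to Gm17690 and Plekhj1. Sf3a1, Sf3a3 and Sf3b6 carried H3K4me3 replicate 1 regions of 92.4, 82.0 and 143.1 with no TAF4b peak listed. The SF3 genes with the highest H3K4me3 scores, Sf3b3 and Sf3b6, thus had a low TAF4b score or none.

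The PRP-type genes had the lowest share with a TAF4b promoter peak in replicate 1, though not in replicate 2. Promoter peaks in replicate 1 were present at Prpf19 (20.8), the ubiquitin ligase of the complex that activates the spliceosome, and Prpf18 (10.9), a factor of the second splicing step. Prpf31, a U4/U6 component, had a peak of 10.9 credited to Tfpt, and Prpf4b, a kinase gene, had one of 44.5 in replicate 2 credited to Gm36839. Prpf39 and Prpf40b, which encode U1-associated proteins, had H3K4me3 scores of 79.0 and 131.2 and no TAF4b peak.

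Of the SR genes, Srsf7 had the highest TAF4b replicate 1 score, 28.8, followed by Srsf3 with 24.3, Srsf11 with 20.3, Srsf10 with 19.9, Srsf4 with 16.9 and Srsf1 with 14.9. Their H3K4me3 replicate 1 scores were 99.9, 76.0, 123.7, 126.7, 134.2 and 49.2, in the same order, so the ranks by the 2 antibodies differed. Srsf2 and Srsf5 had TAF4b peaks of 22.8 and 21.3 credited to neighbours. Srsf6 and Srsf9, with H3K4me3 scores of 122.2 and 98.4, had none. In replicate 2, 0 of the 12 SR genes had a TAF4b peak near a start, beside 4.08% of all protein-coding genes, so a count of 0 in so few genes is near the background.

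Of the LSm genes, Lsm4 and Lsm3 led with TAF4b replicate 1 scores of 28.3 and 26.3, the latter 3 bp from its start and opposite Xpc. Lsm14b, which encodes a cytoplasmic RNA granule protein, had 21.8, and its relative Lsm14a had 17.4 with the highest H3K4me3 promoter score of the LSm genes, 137.1. Lsm8, which makes the LSm ring nuclear, had 19.4, and Lsm1, its counterpart in the cytoplasmic ring, had a peak of 19.4 credited to Bag4. Lsm5, Lsm6 and Lsm12 had 14.4, 12.9 and 8.93. Lsm2 and Lsm7 had H3K4me3 scores of 46.2 and 38.8 without a TAF4b peak. Lsm4 was the only LSm gene listed in TAF4b replicate 2.

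Among the hnRNP genes with a replicate 1 promoter peak outside the top 10, Hnrnpf and Hnrnpul1 both had 29.3, Hnrnpdl 23.3, Hnrnpa0 22.3, Hnrnpd 21.8, Hnrnph1 20.8, Hnrnpm 20.3, Hnrnpll 17.9 and Hnrnpk 12.9. The guanine-run binders Hnrnph1 and Hnrnpf thus lay on either side of the hnRNP median of 23.3. Hnrnpk, which binds cytidine-rich RNA, had the lowest score by the peak credited to it, while a peak of 17.9, whose nearest annotated start was also of Hnrnpk, was credited to Rmi1. Its H3K4me3 replicate 1 score of 31.3 was the lowest hnRNP promoter score for that antibody. Hnrnph3 had peaks of 20.8, credited to Pbld2, and 8.44 in an intron. Hnrnpa1, the hnRNP with the highest H3K4me3 promoter score, 219.1, has its start opposite Cbx5.

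Several genes had more than 1 TAF4b promoter peak. In replicate 1, 9 of the 43 genes with a promoter peak did (20.9%, beside 5.89% of all protein-coding genes with one), among them Hnrnpa0, Hnrnpa1, Hnrnpl, Hnrnpm, Hnrnpu, Hnrnpul2, Srsf1 and Srsf11. At Hnrnpm, which encodes a binder of GU-rich RNA, the peaks (20.3 and 14.9) lay at separate starts on chromosome 17, at 33904319 to 33904461 and 33868691 to 33868833. At Srsf11, an SR-related gene, a peak of 20.3 lay at 157737275 to 157737417 on chromosome 3 and one of 10.4 at 157742256 to 157742398, nearest to the start of Lrrc40. At Srsf1, an early-described SR protein gene, the peaks scored 14.9 and 9.93, with a further peak of 13.9 credited to Gm11508. At Hnrnpa0 the scores were 22.3 and 17.9. Hnrnph3 and Hnrnpk also had 2 TAF4b peaks each, counting one of either gene that was credited to a neighbour.

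Shared promoters were counted next. A canonical start of another protein-coding gene lay within 1000 bp upstream on the opposite strand at 14 of 78 genes (17.9%), beside 5.04% of all protein-coding genes. Of these 14, 13 had TAF4b near a start in replicate 1 and Prpf38a did not. Among all 1096 protein-coding genes with such a partner, 65.5% did. Of the 64 genes without a partner, 41 (64.1%) did, beside 26.3% of all genes without one. In replicate 2 the order was the other way: 1 of the 14 (7.14%) had TAF4b near a start, beside 14.1% of all genes with a partner. Of the 64 without a partner, 10 (15.6%) did, beside 3.55%. By the promoter class 7 of the 14 (50%) had a TAF4b replicate 1 peak, beside 34.2% of all genes with such a partner. At 11 genes a TAF4b replicate 1 peak lay near a start but no promoter peak was credited to the gene: Hnrnpa2b1, Hnrnpab, Hnrnph3, Lsm1, Prpf31, Prpf4, Sf3a2, Sf3b4, Snrpd3, Srsf2 and Srsf5. These were 20.4% of the 54 genes with TAF4b near a start, beside 20.1% over all protein-coding genes, so the share was at the background.

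Hnrnpa2b1, which encodes an abundant hnRNP that packages nascent RNA, is not among the 14 genes with such a partner by canonical starts. A region at another of its annotated starts is shared with Cbx3. The peak there scored 60.5 in TAF4b replicate 1, rank 11 of 7861, and 64.8 in replicate 2, with an H3K4me3 replicate 1 score of 125.2, and all 3 intervals were credited to Cbx3. Prpf4, a component of the U4/U6 snRNP, has its start 105 bp from that of Cdc26. Its TAF4b replicate 1 score was 37.7, its H3K4me3 scores were 152.0 and 101.1, and no TAF4b peak was listed in replicate 2. Srsf2, an SR protein gene, starts 75 bp from Mfsd11 and had a TAF4b replicate 1 score of 22.8 and an H3K4me3 replicate 1 score of 131.2. The Hnrnpab count rests on an annotated start beside Nhp2, at peaks of 37.2 and 68.8, far from its canonical start. Which of the genes at such a promoter a peak belongs to cannot be told apart from these lists.

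TAF4b and H3K4me3 were then compared at the same promoters. Of the 52 TAF4b replicate 1 promoter peaks at these genes, 49 (94.2%, 95% Wilson interval 84.4 to 98) overlapped an H3K4me3 replicate 1 region by at least 1 bp, beside 86.3% (85.4 to 87.2) of all promoter peaks. With at least 50% of the peak required to be covered, the shares were 84.6% and 84.1%, so the difference from all promoter peaks was gone under that rule. These intervals cover counting error only. Among the 3 outside were the peak of Hnrnpk and the weaker peak of Hnrnpu. In replicate 2, 1 of 8 (12.5%, 2.24 to 47.1) overlapped an H3K4me3 replicate 2 region, the peak of Hnrnpu, beside 13% of all promoter peaks, and 8 of 8 overlapped an H3K4me3 replicate 1 region, beside 90.8%. Both shares were near those of the whole list. The H3K4me3 replicate 1 regions of the 52 genes had a median width of 1435 bp and a median score of 101.4, beside 1337 bp and 86.5 over all protein-coding genes with one. The median score was 105.8 at the 36 genes with a TAF4b promoter peak and 98.4 at the 16 without, with interquartile ranges of 64.5 to 130.8 and 81.3 to 124.5, so the ranges overlapped. Across the 36 genes the TAF4b and H3K4me3 replicate 1 scores had a Spearman's rho of 0.232, given as a description across genes, which share both libraries.

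H3K4me3 without a listed TAF4b peak near any start was found at 18 of the 74 genes with H3K4me3 there, taking both replicates together (24.3%, beside 60.2% of all protein-coding genes). By role these were 6 PRP-type (Prpf3, Prpf6, Prpf8, Prpf38a, Prpf39 and Prpf40b), 4 Sm and snRNP (Snrpc, Snrpd1, Snrpf and Snrpg), 3 SF3a and SF3b (Sf3a1, Sf3a3 and Sf3b6), 3 SR (Srsf6, Srsf9 and Srsf12) and 2 LSm genes (Lsm2 and Lsm7), and 0 hnRNP genes. The 13 of them with a promoter-class region had H3K4me3 replicate 1 scores of 38.8 to 161.0 (median 98.4). Prpf8, the scaffold of the spliceosome's catalytic core, had H3K4me3 scores of 161.0 and 181.9 in replicates 1 and 2 and no TAF4b peak in either. H3K4me3 replicate 2 promoter regions were listed at Hnrnpdl (197.1), Prpf8 (181.9), Hnrnpu (111.2) and Prpf38a (96.0, the lowest score of that list). Counting regions of any class, 7 of 78 genes (8.97%) were listed there, beside 7.46% of all protein-coding genes. Hnrnpdl, a relative of the AU-rich element binder Hnrnpd, had 162.5 in replicate 1 and a TAF4b replicate 1 score of 23.3.

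Lsm10, Lsm11, Sf3b5 and Srsf19 had no interval near an annotated start in any list. Lsm10 and Lsm11 encode the LSm proteins particular to the U7 snRNP, which processes the ends of histone mRNAs. Starts of both were also placed on GRCm39 by exact match of their RefSeq promoter windows, and 0 intervals lay within 500 bp of them. Sf3b5, which encodes a small SF3b subunit, had a TAF4b replicate 1 peak of 22.3 in an exon 3005 bp downstream of its annotated start (chromosome 10, 12884021 to 12884163). H3K4me3 regions covered the same stretch with scores of 77.5 in replicate 1 and 96.0 in replicate 2, the latter overlapping part of the peak. Srsf19 had only intergenic H3K4me3 regions.

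Over libraries, the mean share of the 78 genes with a promoter interval was 32.7% ± 31.7 (SD, n = 2) for TAF4b and 35.9% ± 43.5 (SD, n = 2) for H3K4me3, a difference of -3.21 percentage points (exact two-sided permutation p of 1). The smallest p that 2 libraries against 2 allow is 0.333. Within same-numbered libraries the difference was -11.5 points in replicate 1 and 5.13 points in replicate 2. The median deposited distance of the promoter intervals from the start of their own gene was -59 and -13.5 bp for TAF4b and -44 and -8.5 bp for H3K4me3, a difference of means of -10 bp (exact permutation p of 0.667). The replicate 2 medians rested on only 6 genes for TAF4b and 2 for H3K4me3. At the highest TAF4b replicate 1 peak of each gene, 30 of the 43 genes had their own start as the nearest. Of these 30 peaks, 22 lay upstream of that start (73.3%), beside 83.2% of all such genes, and 23 lay within 100 bp of it (76.7%, beside 72.5%). The difference in position depended on how it was measured. It turned in direction (6.62 bp, exact permutation p of 0.667) when distances were recomputed to the nearest annotated start of the gene. That setting took every promoter interval credited to these genes, so the intervals changed as well as the distances. Over all intervals whose nearest start, of one of these genes, was at most 1000 bp away, the difference was -76.2 bp (exact permutation p of 0.333, the smallest possible). There the medians were -58 and -15 bp for TAF4b, and both H3K4me3 libraries lay downstream with a mean of 39.8 bp, so the antibodies did not overlap under that rule.

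Base composition and short sequences were read in 200 bp around the centre of each TAF4b promoter peak. The 9 sequences searched on both strands were the GC box (GGGCGG), the CCAAT box (CCAAT), and the sites named for ETS factors (CCGGAAG), NRF1, YY1 (AAGATGGCG), the cyclic AMP response element CRE (TGACGTCA), GFY, a palindrome around CGCG and the TATA box (TATAAA). Matches that overlapped one another were each counted. The CCAAT box was present in 33 of 52 replicate 1 peaks (63.5%), beside 42.1% of all promoter peaks, and in 6 of 8 replicate 2 peaks (75%), beside 59%. The GC box was present in 69.2% beside 65.9% in replicate 1, and in 75% beside 71.9% in replicate 2. By role, CCAAT was in 18 of 23 hnRNP peaks, 4 of 4 PRP-type, 4 of 8 LSm, 3 of 6 Sm and snRNP, 2 of 3 SF3a and SF3b and 2 of 8 SR peaks. The GC box was in 16 of 23 hnRNP peaks, 2 of 4 PRP-type, 8 of 8 LSm, 3 of 6 Sm and snRNP, 1 of 3 SF3a and SF3b and 6 of 8 SR peaks.

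ETS matches were in 25% of the replicate 1 peaks beside 17.4%, and NRF1 matches in 17.3% beside 11.9%, and in replicate 2 both were in 0 of 8. The others were rare: CRE, the CGCG palindrome and the TATA box in 2 of 52 each, YY1 in 1 and GFY in 0, beside 5.2%, 1.49%, 2.89%, 2.64% and 1.07% of all promoter peaks. In replicate 2, 1 of 8 peaks held a YY1 match, at Prpf38b, and the remaining sequences had 0. Median GC content was 64.8% and 61.5% in replicates 1 and 2, beside 64.5% and 63% for all promoter peaks. The ratio of observed to expected CpG was 0.998 and 1, beside 0.84 and 0.819. A match describes the window and does not show that a factor binds there.

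**Figure D4:**
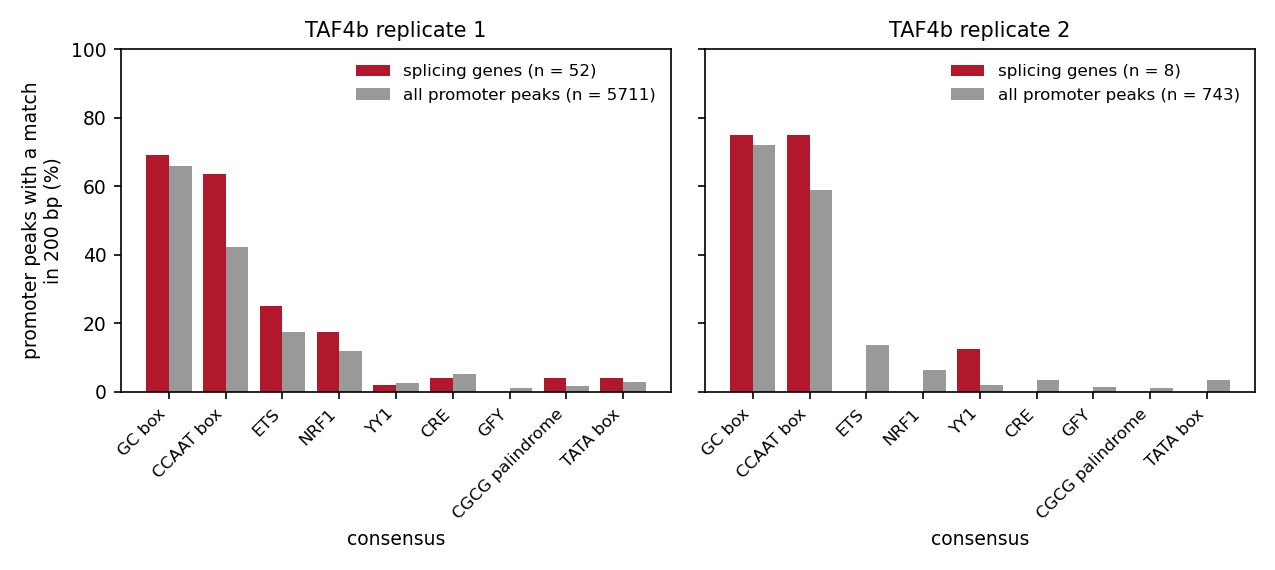
Share of TAF4b promoter peaks (vertical axis, percent) with at least 1 match to each sequence in 200 bp, for the splicing and hnRNP genes (red) and all promoter peaks (grey), by replicate. The CCAAT box was at 63.5% beside 42.1% in replicate 1 and 75% beside 59% in replicate 2, where the red bars rest on 8 peaks.

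In RefSeq promoter windows (GRCm38.p6, 300 bases around the start), found for 66 of the 78 genes, the CCAAT box was in 25 of 47 genes with TAF4b near a start in either replicate (53.2%) and in 7 of 19 without (36.8%), beside 38.8% of 15319 protein-coding genes. The GC box was in 72.3% and 68.4% of them, beside 51.3%, ETS in 29.8% and 31.6%, beside 13%, and NRF1 in 12.8% and 26.3%, beside 7.25%. The TATA box was in 6 of 47 and 0 of 19, beside 11.3%. The GC box, ETS and NRF1 shares thus lay above those of all genes with and without a TAF4b peak, NRF1 more so without, and no test of these differences was made.

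Genes of the same pathway under other symbols were counted in the same way, with no test of the differences between lists. Over all protein-coding genes the shares with a TAF4b promoter peak were 22.7% in replicate 1, 3.14% in replicate 2 and 2.7% in both. Of 55 other spliceosome genes 33 (60%) had a TAF4b replicate 1 promoter peak and 6 (10.9%) a replicate 2 peak. All 6 were in both: Snrnp70, Dhx38, Cdc5l, Bcas2, Luc7l2 and Srrm2. Luc7l2, a U1-associated factor, had scores of 43.2 and 85.0, and Cdc5l, of the complex around Prpf19, 36.7 and 85.0. Of 15 hnRNP-family genes with other names 10 (66.7%) had a replicate 1 and 2 a replicate 2 promoter peak. These were Khsrp (63.5 and 174.1) and Syncrip (25.8 and 44.5). Of 14 genes for snRNP assembly 5 (35.7%) had a replicate 1 peak, and Gemin4 had one in both (22.8 and 48.6). In so short a list 1 gene in replicate 2 says little. Prmt5, the arginine methyltransferase that modifies Sm proteins, scored 39.7 in replicate 1 and was not listed in replicate 2.

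Other housekeeping groups stand beside these counts without a test of the difference. In TAF4b replicate 1 promoter peaks were at 56 of 85 cytosolic ribosomal protein genes (65.9%), 22 of 39 proteasome subunit genes (56.4%) and 27 of 73 translation initiation factor genes (37%). The share was 55.1% for the splicing and hnRNP genes and 22.7% for all protein-coding genes. In both replicates promoter peaks were at 14.1%, 2.56% and 6.85% of the 3 groups. Beside these stood 8.97% of the splicing and hnRNP genes and 2.7% of all protein-coding genes, so the proteasome share was near that of all genes.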

How the data were processed

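CUT&RUN was analysed in 4 libraries (TAF4b and H3K4me3, 2 replicates each), grouped by sample title. The submitters' processing notes name Trim Galore 0.5.0, Bowtie2 2.3.0, SAMtools 1.9, HOMER 4.10 and GRCm39. Per the file headers, H3K4me3 regions were annotated with HOMER annotatePeaks on GRCm39 and Ensembl 103. Settings and any control used in peak calling are not given in the sources used here. Used as deposited were the peak score (normalization not stated), the fraction called focus ratio (copied, not analysed), positions, distances and classes. Depth is unknown.

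Transcripts were matched to GENCODE M39, and at least 99.22% of promoter intervals matched. For intervals nearest to these genes, the deposited distance equalled the recomputed one within 1 bp in 51.1% to 73.9%, so starts differ between annotations. Counts, overlaps (at least 1 bp) and percentiles used Python 3.11.15 and pandas 2.3.3, with Wilson intervals from statsmodels 0.14.6 and the functions checked on planted intervals. Members, lists and rules were chosen with earlier results of these data known. Named were genes with TAF4b in both replicates, the 10 highest replicate 1 scores, genes with 2 or more TAF4b peaks, with H3K4me3 in replicate 2, with no interval, or with TAF4b outside H3K4me3. Sequences came from replicate 2 peaks at genes in both replicates, or from replicate 1 where under 50 bp lay outside exons. The values of 1 gene are counted but not reported here. Alternatives are given in the closing section.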

Additional observations from a re-analysis of the deposited data

How the results depend on the processing

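Of 81 alternative values, 66 kept the direction of a difference, stayed within 1.5 times a count or lay within the spread or counting interval of the main value, which is wide for 8 peaks. With equal numbers of intervals, replicate 1 gave 12 genes with TAF4b (15.4%, beside 3.35% of all genes) in place of 43 and 1 with H3K4me3 (1.28%, beside 3.42%) in place of 52, and 4 rather than 7 had TAF4b in both replicates (5.13%, beside 1.5%). The higher-scoring 50% gave 4 genes (5.13%) in TAF4b replicate 2, beside 1.71%, and 4 in both, beside 1.52%. Counting any class gave 7 genes (8.97%) for H3K4me3 replicate 2, beside 7.46% of all genes. With the H3K4me3 list of the other replicate, the overlap was 3.85% for TAF4b replicate 1, beside 8.36% of all promoter peaks, and 100% for replicate 2, beside 90.8%. In 100 bp windows of replicate 1, the GC box was at 48.1%, NRF1 at 7.69%, YY1 at 0% and the TATA box at 0%, beside 47%, 6.37%, 0.893% and 1.05% of all promoter peaks. RefSeq windows of 300 bp were read for the 47 genes with TAF4b near a start in either replicate, so the genes changed as well as the window. There YY1 was at 2.13%, beside 12.5% of 8 replicate 2 peaks, the TATA box at 12.8%, beside 3.85% and 0% of replicate 1 and 2 peaks, and ETS at 29.8% and NRF1 at 12.8%, beside 0% of replicate 2 peaks. The difference in position reversed to 6.62 bp when recomputed over every promoter interval credited to these genes, so the intervals changed as well as the distances. That alternative was added after the data were seen, as was the canonical start. With the distance limit of 1000 bp the difference in position was -76.2 bp (exact p of 0.333), and the difference in share was -14.7 points. Leaving out each replicate gave -11.5 to 5.13 points for the difference in share, which reversed without replicate 1, and -15 to -5 bp for position. Whether equal replicate numbers mark the same cells is not stated. The replicate block left the differences at -3.21 points (exact sign-flip p of 1) and -10 bp (exact p of 0.5, the smallest possible). The cause was not tested where values moved, other than the smaller lists and windows by construction. Unknown depth limits every absence from replicate 2.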
